A study of Mus musculus with 2 samples.

Results

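Ciliated-like medullary thymic epithelial cells (mTECs) are the few mTECs whose RNA resembles that of the cells that bear many beating cilia in airways, oviduct and brain ventricles. They were selected here as cells holding at least 1 unique molecular identifier (UMI, 1 counted RNA molecule) of at least 4 of 7 genes of the motile cilium: Ccdc153, Dynlrb2, Tmem212, Meig1, Lrrc23, Sntn and Dnali1. The rule was met by 90 of 8534 cells, after barcodes with fewer than 1000 UMIs, fewer than 500 genes or 15% or more of mitochondrial UMIs were set aside from 12139. The rule was applied to every kept cell, whether or not its hashtag named a sample. The mice were 4-week-old wild-type females of the C57BL/6J strain and were injected intraperitoneally once a day for 7 days, either with PBS alone or with PBS that held spermidine at 15 mg/kg. Spermidine is a polyamine, a small positively charged molecule that binds nucleic acids, and the question was how it alters the mTEC transcriptome. The sorted cells were mTEChi cells and post-Aire mTEClo cells, the fraction that also holds mTECs resembling other organs, after removal of CD45+ cells. The 4 samples, PBS 1 and 2 and spermidine 1 and 2, were tagged with 1 hashtag each and run together as 1 droplet library, so that the hashtag alone tells a cell's sample.

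Motile cilia are built on a ring of microtubule doublets around a central pair, and dynein arms on the doublets slide them past each other, while radial spokes and the nexin-dynein regulatory complex coordinate the stroke. A cell that makes many cilia leaves the cell cycle, switches on the coactivator Mcidas and the cyclin family member Ccno, multiplies its centrioles on deuterosomes built with Deup1, and then expresses axoneme genes under Foxj1, Trp73 and RFX factors. In the thymus, mTECs transcribe genes of many organs, in part through Aire, so that developing T cells that recognise them can be removed, and some mTECs take on whole programmes of another cell type.

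The 7 selecting genes were each found in all 4 samples, and their levels are a description, since they chose the cells. Levels are given as UMIs of a gene per 1000000 UMIs (CPM) over the summed cells. Dynlrb2, a light chain of dynein, was at 1366 and 1093 CPM in the ciliated-like cells of PBS 1 and 2 and at 976 and 1637 CPM in those of spermidine 1 and 2, against 2.39 CPM in all other kept cells. Lrrc23, a radial spoke protein, was at 1286, 1060, 940 and 1155 CPM in the same order, and Sntn, a protein of the ciliary tip, at 247, 259, 181 and 104 CPM. No level of these 3 genes in the other cells of any sample reached 7 CPM. The remaining selecting genes pooled to 1094 CPM for Meig1, 573 CPM for Ccdc153, 523 CPM for Tmem212 and 321 CPM for Dnali1, a light chain of the inner dynein arm, with 0.80 to 3.89 CPM of each in other cells.

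Foxj1, the forkhead factor of motile cilia, was not among the selecting genes. It had a UMI in 86 of the 90 cells, 95.6%, against 11% of other cells. With every cell thinned to 5000 UMIs the shares were 80.5% and 4.65%, and 0% of the 203 thinned cells with thymocyte markers had one; 3 ciliated-like cells and 1191 others were too shallow for this. Cells just below the threshold, with UMIs of 3 selecting genes, numbered 28, had a median of 6 UMIs of these genes, and 82.1% of them had Foxj1. Just above it, 14 cells with 4 of the genes had a median of 20 such UMIs, and 85.7% had Foxj1. Fewer cells held 4 or 5 of the genes (14 and 10) than held 3 (28) or all 7 (47).

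**Figure D1:**
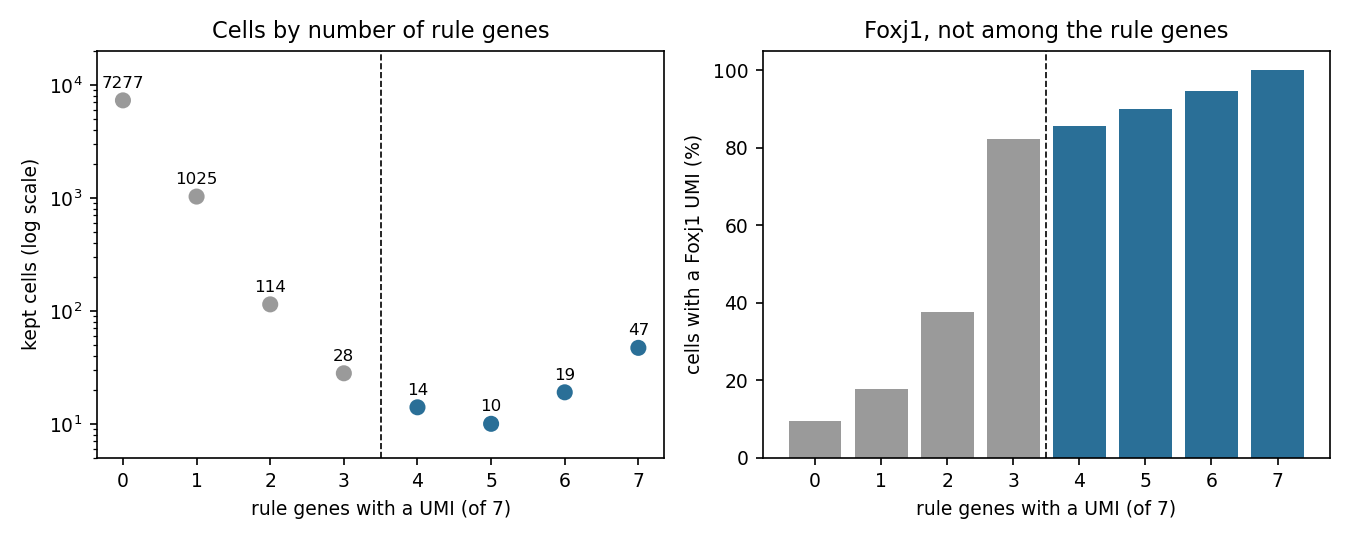
Left, number of kept cells (log scale) against how many of the 7 selecting genes had a UMI; right, percentage of those cells with a Foxj1 UMI. Cells with 4 or more (blue, right of the dashed line) are the 90 ciliated-like cells; Foxj1 was found in 9.39% of cells with 0 selecting genes and in 100% of those with 7.

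The ciliated-like cells were deep. Their median was 32560.5 UMIs and 6996.5 genes per cell, against 15850 UMIs and 4569.5 genes in other cells, and at 5000 UMIs the medians were 2601 and 2299 genes. A median of 1.87% of their UMIs was mitochondrial. Hashtags called 21 of the 90 doublets, against 1027 of all 8534 cells, and other marker rules (at least 4 of 7 markers) were also met: tuft by 28 cells (31.1%, against 39.7% of other cells), keratinocyte by 7, microfold by 5, neuroendocrine and thymocyte by 1 each and muscle by 0. The rule for transit-amplifying cells, the dividing mTEC precursors, was met by 42 cells, 46.7% against 6.17% of others. A rule that asks for a UMI of at least 4 genes is met more easily by a deep cell. Outside the 90 cells, median depth was 32550 UMIs under the transit-amplifying rule and 32942 UMIs under the muscle rule. Under the other rules it ran from 7896 UMIs (thymocyte) to 22225 UMIs (microfold). The part of the rule in the depth of the 90 cells was not tested. Of the 90 cells, 54 were assigned to 1 of the 4 samples and 15 carried none of the 4 hashtags. When HT6 and HT7, hashtags without a named sample, were also used, 34 of the 90 were called doublets.

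The switches that start multiciliation were high in these cells. Mcidas was at 149, 238, 151 and 421 CPM in PBS 1, PBS 2, spermidine 1 and spermidine 2, and at 3.44 CPM in other cells, a ratio of 64.8. Ccno was at 211, 266, 270 and 417 CPM, 74.6 times its level in other cells. Deup1, the scaffold of the deuterosome, was at 332, 309, 302 and 725 CPM, 117 times its level in other cells. Spermidine 2, with only 6 such cells, had the highest level of all 3 genes.

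Among the other transcription factors of the programme, Foxj1 was at 497, 540, 331 and 560 CPM, 40.8 times its level in other cells. Trp73, the p53 relative that drives multiciliated cells, was at 73.3, 63.4, 108 and 122 CPM, 26.7 times its level in other cells. Rfx2, a winged-helix factor that binds promoters of cilium genes, was at 124, 109, 117 and 91.2 CPM, 11.4 times. Rfx3 was less restricted, at 280 CPM against 91.6 CPM in other cells and 406 CPM in cells meeting the neuroendocrine rule. The forkhead factor Foxn4 was 60.8 times higher (45.8 CPM), while Myb was at 261 CPM against 50.2 CPM. Gmnc, the geminin relative that acts at the start of the programme, was at 2.01 CPM against 5.2 CPM, and Noto, the homeobox factor of the embryonic node's cilia, had 0 UMIs. The list of 18 regulators also holds Ift74, a gene of intraflagellar transport that is counted in the transport list too. Of the 18 genes, 8 were at 10 CPM or more and at least 10 times higher than in other cells, a level reached by 1.56% of all 40540 genes with a UMI. The list's median ratio was 3.99, against 0.411 over all genes.

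Promoter stretches of 5 selecting genes and of 3 genes that start multiciliation are shown, because RFX factors and Foxj1 bind known letters before such genes and the genes of this programme were high together. All but the last, Tmem212, were chosen for a match to those letters. They come from RefSeq on build GRCm38.p6, read 5′ to 3′ on the gene's strand. Each is the first 240 bases of a window from 250 before to 50 after the transcription start. Capitals mark matches, on either strand, to GTTGCC (a core of the RFX X-box), GTTNCCATG (a longer part of it, which can overlap the former) and TGTTTAC (a forkhead core). In order they lie at chr9:44240427-44240666 (+), chr8:116504765-116505004 (+), chr6:124779738-124779977 (-), chr14:13670626-13670865 (+), chr9:15627857-15628096 (-), chr13:112993618-112993857 (+), chr13:112987552-112987791 (+) and chr3:27896379-27896618 (-).
Ccdc153: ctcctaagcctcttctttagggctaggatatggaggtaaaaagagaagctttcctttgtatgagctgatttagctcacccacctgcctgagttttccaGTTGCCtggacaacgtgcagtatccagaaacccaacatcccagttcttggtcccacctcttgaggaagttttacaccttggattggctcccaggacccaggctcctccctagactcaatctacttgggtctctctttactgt
Dynlrb2: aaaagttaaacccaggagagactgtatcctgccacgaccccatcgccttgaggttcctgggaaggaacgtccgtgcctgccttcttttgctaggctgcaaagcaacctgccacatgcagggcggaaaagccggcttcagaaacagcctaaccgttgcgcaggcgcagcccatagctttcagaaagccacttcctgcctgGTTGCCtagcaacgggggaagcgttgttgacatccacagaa
Lrrc23: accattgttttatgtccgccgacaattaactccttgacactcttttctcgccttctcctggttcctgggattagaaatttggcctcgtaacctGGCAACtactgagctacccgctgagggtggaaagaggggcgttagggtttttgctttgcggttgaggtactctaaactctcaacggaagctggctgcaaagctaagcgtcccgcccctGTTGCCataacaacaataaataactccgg
Sntn: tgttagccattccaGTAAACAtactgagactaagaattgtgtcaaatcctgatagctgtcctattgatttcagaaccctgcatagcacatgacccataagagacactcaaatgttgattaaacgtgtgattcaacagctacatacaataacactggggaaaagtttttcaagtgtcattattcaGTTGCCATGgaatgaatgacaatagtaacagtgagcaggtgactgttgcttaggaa
Deup1: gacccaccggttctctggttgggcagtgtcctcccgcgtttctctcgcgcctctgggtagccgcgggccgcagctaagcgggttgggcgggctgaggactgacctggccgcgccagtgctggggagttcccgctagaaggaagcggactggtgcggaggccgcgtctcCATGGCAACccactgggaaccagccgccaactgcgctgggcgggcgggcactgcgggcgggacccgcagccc
Mcidas: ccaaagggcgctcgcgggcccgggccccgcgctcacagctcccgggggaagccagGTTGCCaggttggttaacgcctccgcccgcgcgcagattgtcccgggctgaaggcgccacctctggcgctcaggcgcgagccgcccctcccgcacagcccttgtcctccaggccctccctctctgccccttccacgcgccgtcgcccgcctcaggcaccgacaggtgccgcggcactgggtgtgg
Ccno: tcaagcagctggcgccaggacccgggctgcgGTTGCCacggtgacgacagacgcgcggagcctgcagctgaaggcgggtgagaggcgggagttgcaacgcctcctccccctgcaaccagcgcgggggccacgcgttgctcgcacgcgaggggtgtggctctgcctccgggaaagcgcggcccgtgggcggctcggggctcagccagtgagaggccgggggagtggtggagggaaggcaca
Tmem212: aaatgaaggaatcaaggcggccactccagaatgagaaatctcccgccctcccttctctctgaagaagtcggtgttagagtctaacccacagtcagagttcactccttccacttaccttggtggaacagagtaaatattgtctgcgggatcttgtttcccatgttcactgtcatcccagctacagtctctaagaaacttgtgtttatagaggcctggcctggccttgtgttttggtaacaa

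Tmem212 held no match in its window, nor did the 3 promoters of Meig1, the second promoter of Deup1 and the promoter of Cdc20b, and Dnali1 held only GTTNCCATG, past the stretch shown for the others. GTTGCC was thus found in 4 of the 9 promoters of the selecting genes. Sntn held all 3 kinds of match in this stretch, Lrrc23 held GTTGCC on both strands, and Deup1 held GTTGCC inside a GTTNCCATG match on the other strand. Mcidas and Ccno, the first at chr13:112993845-113000394 and the second at chr13:112987802-112990777 in GRCm38, are neighbours on the same strand. Over the full windows GTTGCC was found in 43.6% of 236 promoters of 207 matched genes of 11 cilium gene lists, against 12.5% of all 32851 promoters. GTTNCCATG was found in 9.75% against 1.93%, and TGTTTAC in 5.51% against 3.65%. Among the 486 matched genes that were at 10 CPM or more and at least 10 times higher in ciliated-like cells, the shares of promoters were 30.5%, 7.53% and 4.62%. This set overlaps the first, since 155 of all 633 genes at that level are genes of the 11 lists. By role, GTTGCC was found in 61.5% of promoters of dynein assembly factors, 61.1% of central pair and 23.1% of outer arm genes. These are matches of letters; base composition was not accounted for and binding was not measured.

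Genes of every part of the axoneme were found, and as the same cells' counts chose the cells, these levels are a description. The 11 lists, grouped by role, held 247 genes with a row in the files, of which 246 had a UMI in some cell, 219 had one in at least 45 of the 90 cells, and 155 were at 10 CPM or more and at least 10 times higher than in other cells, a level reached by 1.56% of all genes. The lists hold the 7 selecting genes, which had to be high; without them 148 of 239 genes with a UMI reached that level, and the lists' share of UMIs was 4.99% in ciliated-like cells and 0.497% in others. With them it was 5.50% and 0.498%. By sample the share with them was 6.22% and 6.31% with PBS and 4.85% and 5.61% with spermidine, and over single cells it ran from 0.786% to 10.1%. The count was 156 without hashtag doublets and 155 in the 28 cells that were neither doublets nor met another marker rule.

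The counts by role include 1 selecting gene each for the outer arm, inner arm, radial spoke, nexin-dynein regulatory complex and doublet lists, and 2 for the list of other genes. All 13 inner dynein arm genes were at least 10 times higher, with a median ratio of 47.7: the heavy chains Dnah12 (466 CPM against 5.14) and Dnah6 (351 against 7.36) and the intermediate chain Wdr78 (211 against 6.90) are examples. Of 17 outer arm and docking genes 8 were, with a median ratio of 9.99 (7.44 without Dynlrb2). There the intermediate chain Dnaic2 was at 238 CPM against 23.8 and the docking factor Ttc25 at 144 against 40.7, and Dynll1, a light chain that cytoplasmic dynein shares, was at 2495 against 652. Assembly factors, which fold dyneins in the cytoplasm, had a median ratio of 12, with 6 of 12 at least 10 times higher. Zmynd10 led them at 298 CPM against 0.875, and Dnaaf3 stood at 181 against 47.4.

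The structures that steer the stroke were as clearly present. In the radial spoke list 14 of 17 genes were at least 10 times higher (median ratio 52.3), among them Rsph1, at 732 CPM against 14, and Rsph9, at 285 against 9.69. In the central pair list 15 of 18 were (median 29.6), with Spag16 at 624 CPM against 10.8 and Cfap54 at 317 against 9.87. The nexin-dynein regulatory complex had 13 of 15 (median 44.2), with Iqcg at 215 CPM against 3.30 and Drc1 at 199 against 7.20. The list of proteins inside the doublet microtubules and of tubulins, which also holds Tppp3 and Spata18, had 27 of 33 (median 53.2). The tubulin Tubb4b was at 2950 and 3164 CPM with PBS and 1782 and 2718 CPM with spermidine, 13.1 times its level in other cells, and Tppp3, a tubulin-polymerising protein, at 934 CPM against 35.2.

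As lists, transport and centriole genes stood less far apart. Many of them also serve cells with a single primary cilium, but Deup1 and Ccdc78, in the centriole list, are genes of the deuterosome. All 35 genes of intraflagellar transport and the BBSome had a UMI in at least 45 ciliated-like cells, but only 6 were at least 10 times higher and the median ratio was 4.70. Ift22 was at 444 CPM against 28.7 and Ift20 at 481 against 102. In the centriole list 6 of 17 were (median 6.99): Ccdc78, a partner of Deup1 in the deuterosome, was at 207 CPM against 0.678, but the satellite protein Pcm1 was at 400 against 106. Of 53 other genes known from multiciliated cells 41 were (median 30.7), such as Ccdc146, a centriole protein, at 339 CPM against 2.66, and Tmem107, of the transition zone at the cilium's base, at 714 against 23.3.

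**Figure D2:**
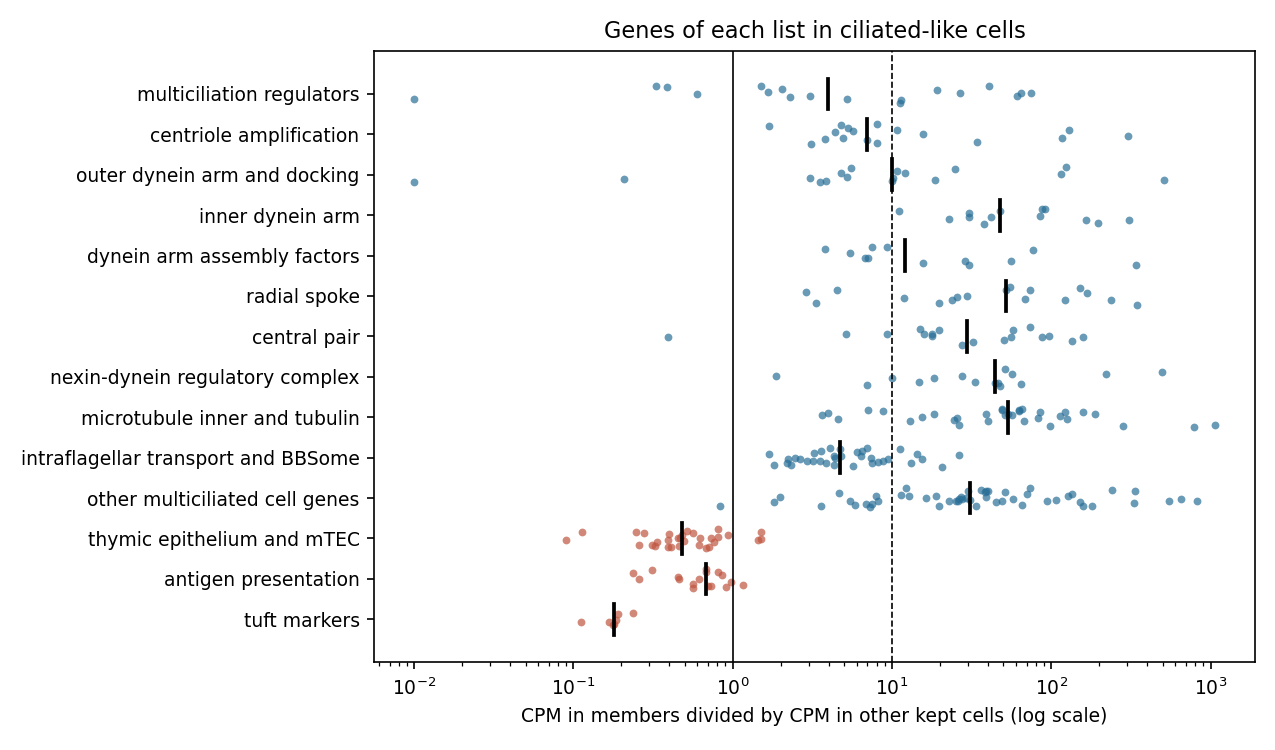
Each point is 1 gene, placed by the ratio of its CPM in the 90 ciliated-like cells to its CPM in other kept cells (log scale); black bars are list medians, the solid line is 1 and the dashed line 10. Medians of the 11 cilium lists (blue) run from 3.99 to 53.2 and those of the mTEC, antigen presentation and tuft lists (red) from 0.179 to 0.679; 2 genes with 0 UMIs in ciliated-like cells are drawn at 0.01.

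The genes with the highest ratio outside the selecting genes, among those with a UMI in at least 45 of the 90 cells, covered several functions. First was C230072F16Rik, at 145 CPM against 0.115 CPM (1255 times), where the other 8444 cells held 17 UMIs in all. Fam166c followed at 1063 times, Spata18, a mitochondrial quality factor, at 790, BC051019 at 543, Ccna1, the cyclin A of male meiosis, at 540 and Syt10, a synaptotagmin, at 509. Ccna1 was at 117 CPM in ciliated-like cells and at 0.217 CPM in others. Others of the first 20 were Rsph14 (343 times), Zmynd10 (340), Ccdc78 (305), Morn3, Tctex1d4, Mdh1b and Crocc2.

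Some genes outside the cilium were high too. Hsp90aa1, the inducible cytosolic chaperone Hsp90, was at 6377 and 6605 CPM with PBS and 4997 and 5992 CPM with spermidine, 8.5 times its level in other cells, and Hsph1, another heat shock chaperone, was 4.36 times higher. The stress-induced Dnajb1 was at a ratio of 1.47, and the median ratio of the 15 immediate early and heat shock genes was 0.492. Of 14 interferon-stimulated genes, with a median ratio of 1.55, Ifit3 was 10.0 times higher, Rsad2 4.28 times and Bst2 4.19 times. The mRNAs of Ifit3 and its copy Ifit3b can share reads, so this value is uncertain.

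The cells also carried mTEC transcripts, at lower levels. Aire was at 102 and 43.1 CPM with PBS and 266 and 30.4 CPM with spermidine, against 419 CPM in other cells. A single cell held 80.3% and 35.3% of the Aire UMIs of PBS 1 and 2, and 36.4% and 71.4% of those of spermidine 1 and 2. At 5000 UMIs Aire had a UMI in 20.7% of ciliated-like cells, 41.5% of others and 34.5% of cells with thymocyte markers. The last held up to 102326 UMIs before thinning, and 74 of them were too shallow to be thinned. They can include cells caught together with an mTEC, so their share is no clean measure of free RNA. Of the 90 cells, 9 had 10 or more Aire UMIs. Fezf2, the other main driver of tissue antigens, was at 194, 266, 214 and 126 CPM against 316 CPM, and in 48.3% of thinned ciliated-like cells, 45.8% of others and 31.0% of thymocyte-marker cells. In the 28 cells that were neither doublets nor met another marker rule, Fezf2 was level with other cells (log2 ratio 0.03, against -0.55 in all 90).

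Epithelial and antigen presentation genes were also present. Epcam was at 369, 365, 378 and 330 CPM against 797 CPM in other cells and was found in 75.9% of thinned ciliated-like cells against 49.8% of thymocyte-marker cells. The simple-epithelium keratin Krt8 was at 2673, 3382, 2080 and 2054 CPM, 1.51 times its level in other cells and above it in each sample. Krt5, of basal cells, was at 13.7 CPM against 153, and Ccl21a, the chemokine of immature mTECs, at 35.4 against 311. The class II gene H2-Aa was at 1822, 2936, 2832 and 1237 CPM against 3970 CPM. The 31 thymic epithelial and mTEC genes had a median ratio of 0.482, the 17 antigen presentation genes 0.679 and the 7 tuft markers 0.179. The median over all genes, 0.411, includes rarely seen genes and is no measure of what well-expressed genes do.

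Of genes found in at least 50% of other cells, the lowest here were Mctp1, a calcium-binding membrane protein, at 264 CPM against 3085, and Lrmp, an endoplasmic reticulum protein of taste and tuft cells, at a ratio of 0.09. Both were highest in cells meeting the tuft rule, at 7092 and 1545 CPM. The adhesion gene Cadm2, at a ratio of 0.11, and the phosphatase Inpp5d, at 0.15, were also among the lowest, as were Skint1, Dpp10, Fyb, Kcnq3 and Fam49a, the last at 0.171. Markers of airway secretory cells, the neighbours of ciliated cells there, had a median ratio of 0.329. Thymocyte markers had a median ratio of 0.289 and summed to 17.4 to 29.8 CPM per sample.

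**Figure D3:**
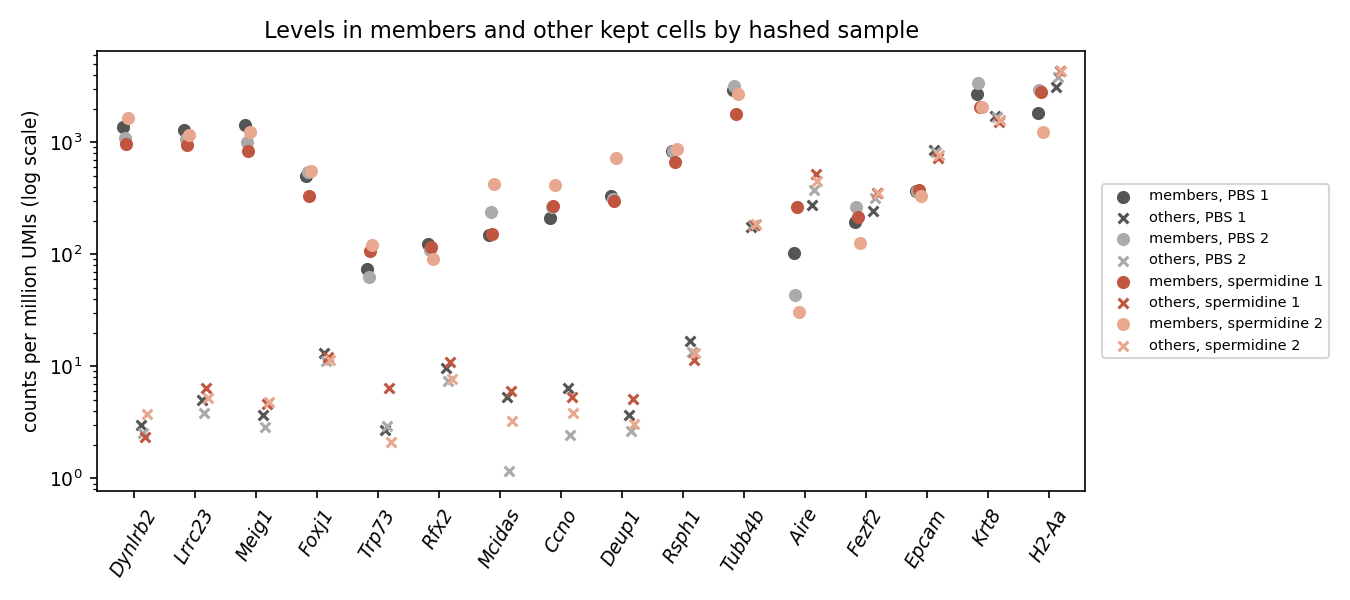
CPM (log scale) of 16 genes in ciliated-like cells (circles) and all other kept cells (crosses) of each hashed sample. The first 11 genes, of the cilium, are higher in ciliated-like cells of all 4 samples; Aire, Fezf2, Epcam and H2-Aa are lower in all 4 and Krt8 is higher.

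The 90 cells differed among themselves in the genes that start multiciliation. The genes Mcidas, Ccno and Cdc20b, which share a locus on chromosome 13, were summed per cell. They were at 5 or more per 10000 UMIs, with at least 5 UMIs, in 34 cells (the high group), below this in 19 (the low group) and without a UMI in 37 (the zero group). These groups were chosen after the values were seen, no test was run on them, and 7 cells lay near the limit, between 2 and 10 per 10000. Each sample held all 3 groups: 6, 4, 6 and 3 high, 7, 3, 2 and 1 low and 10, 3, 7 and 2 zero cells in PBS 1, PBS 2, spermidine 1 and spermidine 2. Median depths were 38488, 42640 and 23720 UMIs in the high, low and zero group. All 4 cells with fewer than 10 UMIs of the selecting genes were in the zero group, which thus holds weakly marked cells. In the same order the tuft rule was met by 13, 4 and 11 cells, and 9, 2 and 10 were hashtag doublets. The part of such cells in the levels of each group was not tested.

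Centriole genes followed the high group. Of the 16 centriole genes other than Cdc20b all were higher there than in the zero group, 13 of them at least 2-fold, and 11 were higher in every one of the 4 samples. Over all 22893 genes 11482 were higher in the high and 11411 in the zero group. Of these 22893 genes, 2588 were at least 2-fold higher in the high group and 2162 were higher there in each of the 4 samples. Deup1 was at 755, 186 and 56.4 CPM in the high, low and zero group. Plk4, the kinase that licenses a new centriole, was at 317, 56.3 and 18.1 CPM, and Stil, its substrate, at 219, 33.5 and 3.38 CPM. Cep152, which recruits Plk4, was at 189, 18.8 and 10.2 CPM. Without hashtag doublets (25 high and 27 zero cells), or with a limit of 10 per 10000 (32 high cells), these 16 genes were all still higher. Cdc20b, gene 17 of the list, had to be higher, since it defines the groups.

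Foxj1 was at 500, 449 and 414 CPM in the high, low and zero group, closer together than the regulators that act with it. Foxn4 was at 92.7, 12.1 and 2.26 CPM, Myb at 407, 174 and 112 and Trp73 at 125, 91.1 and 36.1, each with its highest level in the high group. Rfx2 ran the other way, at 72.1, 139 and 140 CPM, and Rfx3 did so too, at 216, 340 and 327.

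Summed axoneme genes were highest in the low group. With the selecting genes left out, radial spoke genes summed to 2844, 4571 and 2068 CPM in the high, low and zero group, inner arm genes to 2345, 3427 and 2386 and central pair genes to 3017, 5504 and 3256. Doublet and tubulin genes summed to 8623, 15938 and 8129 CPM. Single genes differed from this: Dnah5, the outer arm's heavy chain, was at 143, 291 and 602 CPM, Cdhr3, a cadherin of airway ciliated cells, at 202, 454 and 486, and Hsp90aa1 at 7527, 8272 and 2525. Of the 51 other multiciliated genes outside the rule, 31 were higher in the zero than in the high group, 21 of them in each of the 4 samples, beside 11411 and 1548 of 22893 over all genes.

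The selecting genes also differed between groups, but a cell with few UMIs of some of them needed others to be chosen, so their levels are given only as values. Dynlrb2 was at 1539, 1582 and 435 CPM, Lrrc23 at 1401, 1653 and 265 and Meig1 at 1322, 1595 and 322. Sntn was at 28, 246 and 390 CPM, Tmem212 at 153, 800 and 856 and Ccdc153 at 301, 754 and 839.

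Some genes of dividing cells were shared by the high group and the transit-amplifying cells, others were not. Top2a, the topoisomerase of chromosome segregation, was at 423, 169 and 4.51 CPM in the 3 groups and at 439 CPM in cells meeting the transit-amplifying rule. The kinase Cdk1 was at 360 CPM in the high group against 305 CPM there, and Cdc20, an activator of the anaphase-promoting complex, at 246 against 139. Ccna2, however, was at 2.94 CPM against 106 CPM, Mki67 at 46.3 against 315, Ube2c at 62.5 against 349 and Birc5 at 66.2 against 189. The transit-amplifying rule was met by 32 of the 34 high, 10 of the 19 low and 0 of the 37 zero cells. Since that rule removes the high group, leaving out doublets and every cell meeting another rule took the log2 ratio of Ccno to other cells from 6.22 to 1.70 and that of Mcidas from 6.02 to 2.75.

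Several genes outside the cilium, picked after their values were seen, were higher in the zero group. Cp, the ferroxidase ceruloplasmin, was at 646 CPM there and had 0 UMIs in the high group. Ly6a was at 2383 CPM against 32.4, Wfdc2, a secreted protease inhibitor of airway, at 1942 against 39.7 and Krt19, a keratin of simple epithelium, at 425 against 35.3. Of the Wfdc2 level, spermidine 2 had 16699.5 CPM from 2 zero cells and the other samples 140 to 1260 CPM. All 14 interferon-stimulated genes were higher in the zero than in the high group in the pooled cells, 6 of them in each of the 4 samples, beside 11411 and 1548 of 22893 over all genes. Ifit1, at 358 CPM against 42.7, is one of the 6. Among the ciliated-like cells of spermidine 1 a single cell held 78.1% of the Ifit1, 83.4% of the Ifit3 and 69.4% of the Isg15 UMIs. Airway secretory markers were higher in the zero group in 5 of 12 and in the high group in 7. Isg15 was at 310 CPM against 44.1, but in PBS 2 it was at 81.9 against 94.7. Ly6a has close relatives, such as Ly6c1, with which reads may be shared. Antigen presentation genes summed to 20398, 14139 and 27869 CPM, and tuft markers to 277, 121 and 1197 CPM, in the high, low and zero group.

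**Figure D4:**
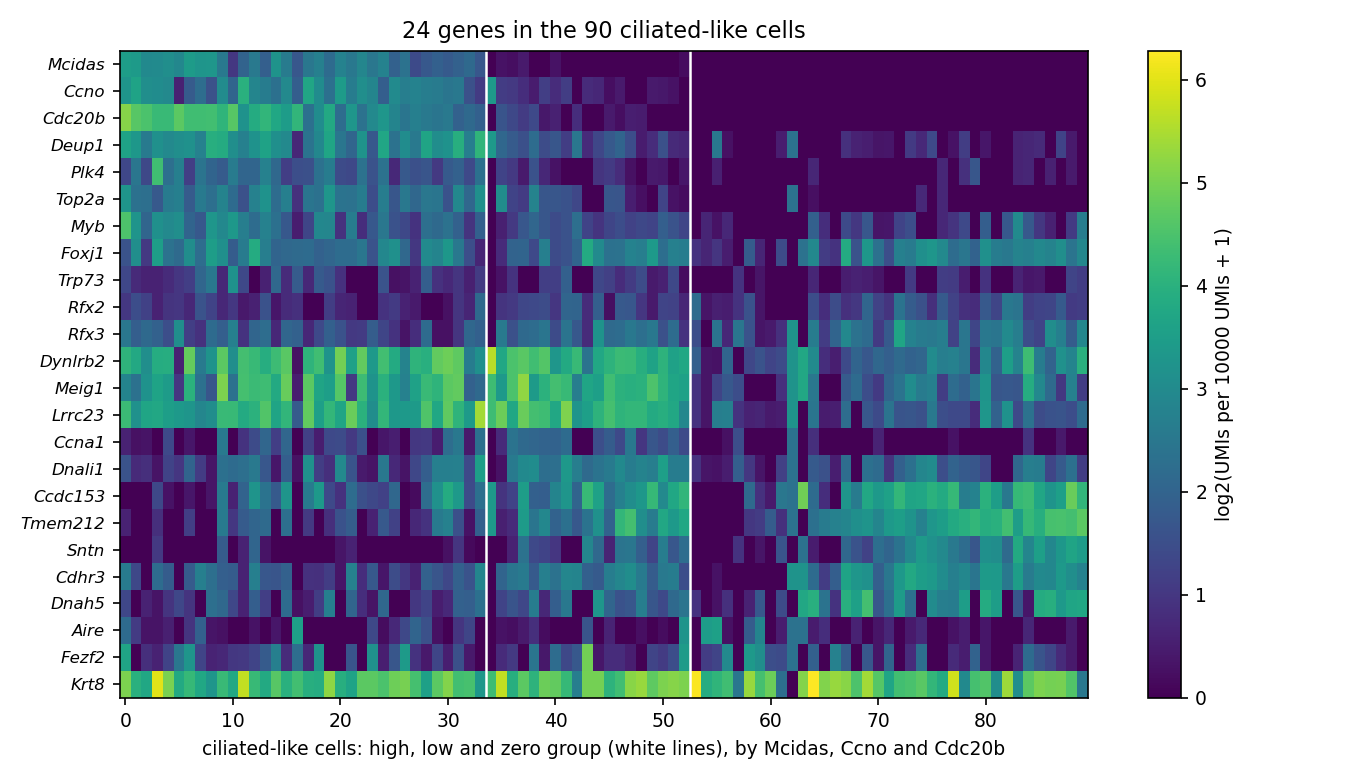
Levels of 24 genes (rows) in each of the 90 ciliated-like cells (columns), as log2(UMIs per 10000 + 1); white lines part the 34 high, 19 low and 37 zero cells by Mcidas, Ccno and Cdc20b, which are the first 3 genes. Deup1, Plk4 and Top2a are bright in the high group, Sntn, Tmem212 and Cdhr3 in most cells of the low and zero groups, and Foxj1 in nearly all cells.

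Under the rule used here, ciliated-like cells were no more than 2% of any sample, and their share overlapped between treatments. They were 23 of 1335 cells in PBS 1, 1.72% (95% exact Clopper-Pearson interval 1.10 to 2.57), and 10 of 993 in PBS 2, 1.007% (0.484 to 1.84). With spermidine they were 15 of 1374 cells in sample 1, 1.09% (0.612 to 1.79), and 6 of 1007 in sample 2, 0.596% (0.219 to 1.29). Spermidine 1 lay between the PBS samples. This overlap depended on the setting. With at least 3 selecting genes the shares were 2.02% and 1.51% with PBS and 1.38% and 1.09% with spermidine. Both spermidine shares were also below both PBS shares with at least 5 selecting genes, or when the top hashtag had to be 3 times the next. The exact two-sided permutation p was 0.333 in each of these settings. The PBS samples averaged 1.36% ± 0.506 (SD, n = 2) and those given spermidine 0.844% ± 0.351 (SD, n = 2), a difference of -0.521 percentage points with exact two-sided permutation p = 0.667, in a design that cannot go below 0.333. It was -0.163 without PBS 1, -0.879 without PBS 2, -0.769 without spermidine 1 and -0.273 without spermidine 2. Intervals cover counting error only, and the sort and the unstated mixing of sorted fractions can set such shares.

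**Figure D5:**
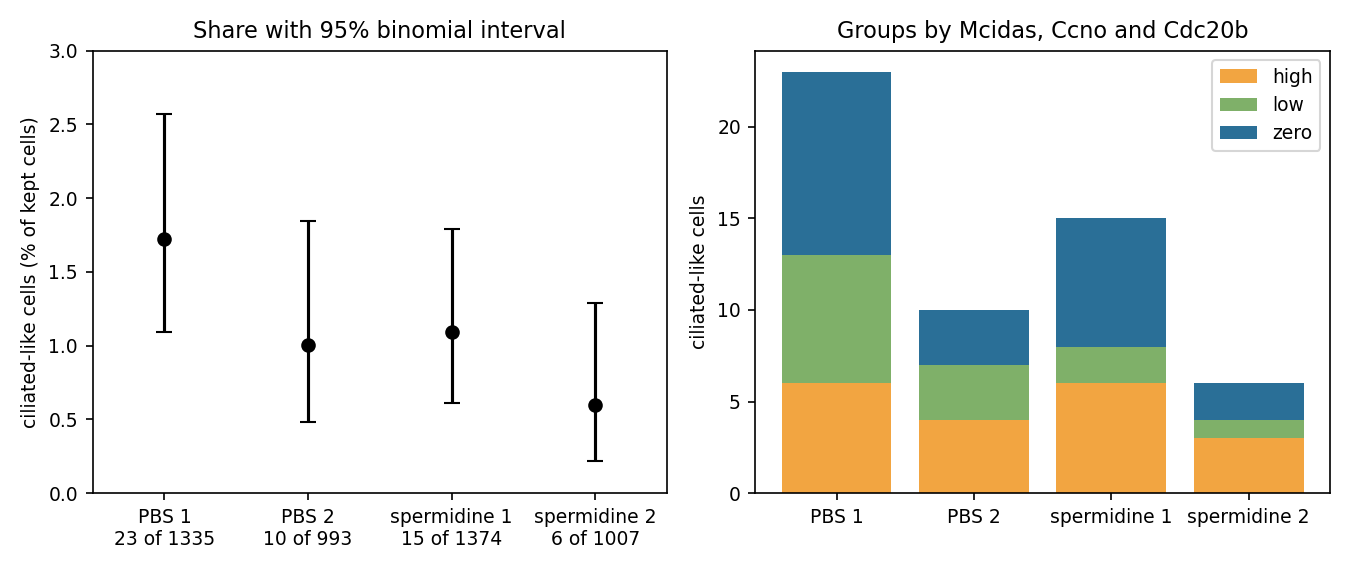
Left, ciliated-like cells as a percentage of kept cells in each hashed sample with exact 95% binomial intervals; right, their number in the high, low and zero group of Mcidas, Ccno and Cdc20b. The intervals of all 4 samples overlap, and every sample holds all 3 groups.

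No gene passed the test for spermidine within ciliated-like cells. Counts were summed over the 23, 10, 15 and 6 cells of the 4 samples, 695949, 394415, 537099 and 230311 UMIs. edgeR's quasi-likelihood test called 0 of 8188 genes (0% of genes tested) at an adjusted p of 0.05, with 0.390 the smallest adjusted p, and 398 genes, 4.86% of those tested, had an unadjusted p under 0.05, 164 higher and 234 lower with spermidine. DESeq2 called 4 genes: Zg16 and Fxyd2 higher, Wfdc18 and Frmpd4 lower. In edgeR the count was 111 without PBS 1, 95 without PBS 2, 0 without spermidine 1 and 1 without spermidine 2, where a lone sample is taken to vary like the other group. Whether each hashed sample was a separate mouse is not stated in the labels, and p-values here measure the spread between hashed samples, which may be technical.

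For 9 of the 10 genes with the smallest p a single cell held over 50% of the UMIs in at least 1 sample of the higher group. Fxyd2, a subunit of the sodium pump, was at 41.7 and 35.5 CPM with PBS and 186 and 213 CPM with spermidine (log2 fold change 2.36, SE 0.34, adjusted p = 0.390 in edgeR). A single cell held 89.0% of its UMIs in spermidine 1 and 79.6% in spermidine 2. Hpgd, which degrades prostaglandins, was at 30.2 and 22.8 against 132 and 165 CPM (log2 fold change 2.45) and Sema3c, a secreted semaphorin, at 28.7 and 27.9 against 112 and 156 (2.22), with 87.3% and 50% of the Hpgd UMIs and 58.3% and 86.1% of the Sema3c UMIs of spermidine 1 and 2 in 1 cell. Vnn1, a pantetheinase, was at 0 in both PBS samples and at 44.7 and 56.4 CPM with spermidine, at least 17.5-fold higher against a floor of 3 counts over the PBS group. For Pgc, a pepsinogen, at 1.44, 0, 147 and 21.7 CPM, 1 cell held 96.2% of the UMIs in spermidine 1 and 100% in spermidine 2.

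On the lower side, Wfdc18, a secreted protein with a whey acidic protein domain, was at 790 and 340 CPM with PBS and 72.6 and 39.1 CPM with spermidine (log2 fold change -3.25, SE 0.49, adjusted p = 0.390 in edgeR and 3.55e-06 in DESeq2). A single cell held 54.7% of its UMIs in PBS 1 and 64.2% in PBS 2. Frmpd4, a synaptic scaffold protein, was at 264 and 114 against 29.8 and 8.68 CPM (-3.09), Adgrl3, an adhesion receptor, at 101 and 114 against 20.5 and 4.34 (-2.82), and Gm29538 at 203 and 190 against 55.9 and 30.4 (-2.09). For Gm29538 the top cell held 22.7% and 29.3% of the UMIs of PBS 1 and 2. Gzmf, a granzyme, was at 50.3 and 45.6 CPM with PBS and 0 with spermidine, at least 12.4-fold lower against a floor of 3 counts over the spermidine group. A single cell held 85.7% of its UMIs in PBS 1 and 100% in PBS 2.

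Most cilium genes had lower values with spermidine, and none of them passed the test. Of the 235 genes of the 11 lists that could be tested 182 were lower and 53 higher (median log2 fold change -0.30), against 3933 lower and 4255 higher and a median of 0.02 over all genes tested. An unadjusted p under 0.05 was found for 23 of them, 22 lower and 1 higher, which is 9.79% of the list genes beside 4.86% of all genes. The 235 genes include the 7 selecting genes, whose UMIs chose the cells of each sample. Of these 7, 6 were lower, 1 was higher and 0 had an unadjusted p under 0.05 in edgeR. By role the median was -0.51 for the outer arm (12 of 14 lower), -0.32 for doublet and tubulin genes (26 of 31), -0.29 for the central pair (16 of 17) and -0.22 for intraflagellar transport and the BBSome (26 of 35). Centriole genes had a median of 0.34, with 12 of 17 higher, and all 6 testable transit-amplifying markers were higher (median 0.49). The high group was 26.1% and 40% of the ciliated-like cells of the PBS samples and 40% and 50% of those of the spermidine samples, and the part of this mix in the values was not tested.

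Of single cilium genes, Sntn had a log2 fold change of -0.78, Ccdc153 of -0.61, Tmem212 of -0.35, Foxj1 of -0.22, Mcidas of 0.54 and Trp73 of 0.74, with adjusted p = 0.987 for each in edgeR. Sntn, Ccdc153 and Tmem212 are selecting genes, so their UMIs also chose the cells compared. The samples of Foxj1 and Mcidas overlapped between treatments. Those of Sntn, Ccdc153, Tmem212 and Trp73 did not: both spermidine values were below both PBS values for the first 3 genes and above them for Trp73, at 73.3 and 63.4 against 108 and 122 CPM. Samples were parted in this way, in either direction, for 128 of the 235 testable list genes and for 2863 of all 8188 genes tested. Among the 23 genes with an unadjusted p under 0.05, Fam183b was at -0.74, Dnah5 at -0.80 and Cdhr3 at -0.85. Of 13 testable polyamine genes 7 were higher and 6 lower, with a median of 0.04, and 0 had an unadjusted p under 0.05. Odc1, the enzyme that starts polyamine synthesis, was at 200 and 190 CPM with PBS and 233 and 169 CPM with spermidine (log2 fold change 0.07). Keratinocyte markers summed to 1846 CPM in PBS 1 and to 104, 54.0 and 39.1 CPM in PBS 2, spermidine 1 and spermidine 2, and a single cell held 99.5% of the UMIs of Krtdap, at 1371 CPM the main part of the sum in PBS 1. All 3 of these markers that could be tested, Krtdap, Sbsn and Krt10, had an unadjusted p under 0.05, lower with spermidine, beside 4.86% of all genes. A single cell held 95.9% and 88.2% of the Sbsn UMIs of PBS 1 and 2, and the Krt10 samples overlapped. Airway secretory markers summed to 1223 and 1483 CPM with PBS and 497 and 156 CPM with spermidine. Of these, Reg3g made up 1055 and 1149 CPM in the PBS samples, and a single cell held 81.1% of its UMIs in PBS 1 and 60% in PBS 2. The part of these markers in the treatment values was not tested.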

How the data were processed

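RNA of single mTECs was counted in 1 droplet run of 4 hashed samples, and the authors deposited raw UMI counts for each gene, hashtag and barcode. Per the file headers, the matrix was written by version 7.1.0 of Cell Ranger. Build mm10, bcl2fastq, Cell Ranger and Seurat are named in the submitters' processing notes; the annotation, the cell filter and the handling of reads that match several genes are not given in the sources used here, so near-identical copies (Ly6a and Ly6c1, Ifit3 and Ifit3b, Spag6l, Tuba1a, Dnah7a and its copies) are uncertain. The files hold 55487 genes and 15 hashtags in 12139 barcodes; hashtags entered neither library sizes nor tests. Gene positions are from GENCODE on GRCm38 and promoters from RefSeq on GRCm38.p6.

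Cells were assigned to samples from the 4 labelled hashtags with HTODemux of Seurat 5.3.0 (positive quantile 0.99). Doublets were not called from RNA. Doublets called from the 4 labelled hashtags were kept among the 90 cells and left out of the comparisons by sample. Cells that held a labelled hashtag together with HT6 or HT7, which have no named sample, could remain in those comparisons. CPM are UMIs of summed cells per 1000000 UMIs. Comparisons with other cells are descriptions with no test, since the same counts chose the cells. For treatment, counts were summed per sample and compared by edgeR 4.0.16 under R 4.3.3 (quasi-likelihood test, TMM factors, filterByExpr with a minimum count of 10 and a minimum total of 15, Benjamini-Hochberg adjustment over all genes tested at 0.05), with DESeq2 1.42.0 beside it. The script was tested on simulated data. Each sum held 230311 to 695949 UMIs, and the common biological coefficient of variation was 0.2865.

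Genes were named by a rule: the selecting and marker genes with Aire, Fezf2, Trp73, Mcidas, Deup1 and Ccno, up to 4 genes of each list found in most ciliated-like cells, the 20 highest and up to 10 lowest against other cells, and the 5 smallest p on each side for treatment. Genes that tell the high, low and zero groups apart, list genes at an unadjusted p under 0.05 and other genes given as examples were chosen after their values were seen. The selecting rule, the gene lists and the tests were chosen with earlier results of these data known. Alternatives covered the selecting rule, the cell filter, the assignment, the denominator, depth, normalization, the low-count filter, the tool, the replicate block and leaving out each sample. A gene among the lowest genes is not reported here.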

Additional observations from a re-analysis of the deposited data

Results flagged for a closer look

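Hashtags that the labels give no sample also marked ciliated-like cells. When cells were assigned with 6 hashtags, 13 of the 90 cells carried HT6 or HT7, 6 and 7 cells respectively, while 18, 7, 11 and 5 were assigned to PBS 1, PBS 2, spermidine 1 and spermidine 2, 34 were doublets and 2 carried none. These 13 cells belong to no comparison of treatments and enter only the pooled levels.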

How the results depend on the processing

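The number of ciliated-like cells, 90, ran from 69 to 118 over the 5 alternatives to the rule and the filter, and the difference in share stayed negative under all 11 alternatives, from -0.879 to -0.163 percentage points when samples were left out. The count of genes called for treatment was 0 in edgeR as planned, with RLE factors, with at least 3 selecting genes, with either other assignment and with the replicate block; it was 256 without the low-count filter, 4 in DESeq2, and from 0 to 111 when 1 sample was left out. Of the 256 genes, 119 were among those tested with the filter; the cause was not tested. Samples share only a replicate number. Over the genes tested, the deviations of PBS 1 and spermidine 1 from their treatment means had a correlation of -0.09. With 2 samples per treatment, the deviations of PBS 2 and spermidine 2 only mirror these. With the replicate block the smallest adjusted p was 0.0733 in edgeR. Of 15 log2 ratios of single genes to other cells, all 15 moved by less than 1 SD between samples without hashtag doublets. Without doublets and cells meeting another marker rule 5 did so, 9 moved further and Fezf2 turned from -0.55 to 0.027. Apart from the count of 69 cells and the level ratios without doublets and cells of another rule, alternatives that leave out doublets were chosen after seeing the data, as was the other limit of the high group. With 6 to 23 cells per sample, the levels of sparse genes rest on few cells, and fewer RNA molecules per cell and fewer such cells cannot be told apart in pooled levels.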
